A study of Homo sapiens with 6 samples.

Results

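Notch signalling was examined through 10 genes: the receptors NOTCH1, NOTCH2 and NOTCH3, the ligands JAG1, JAG2, DLL1 and DNER, and the target genes HES1, HEY1 and NRARP. They were chosen by symbol with earlier results of these data known. Counts of members called therefore describe this choice and are no test against the shares of all genes printed beside them. All 25 probe sets annotated with no other symbol than that of a member were taken. The members are 10 of the 19775 genes that the arrays name in this way. Expression was measured on 6 arrays of the pancreatic ductal adenocarcinoma lines Panc1 and BxPC3. Control cells of genotype KDM6A wild-type were set against cells in which KDM6A, a histone H3 lysine 27 demethylase gene, was knocked out, with 1 control and 1 knockout (KO) array for Panc1 and 2 of each for BxPC3. Per the labels' protocols, the KO cells carried a lentiviral lentiCRISPR v2 vector with Cas9 and a guide against KDM6A, had been selected in puromycin and were obtained as clones by limiting dilution. The labels name neither the number of clones behind an array nor a vector in the control cells, so clone, vector and genotype cannot be told apart. Whether each BxPC3 array had a culture of its own is not given either, and p-values therefore measure only the spread between arrays, which may be technical.

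Notch receptors are bound by ligands of the Jagged and Delta-like families on a neighbouring cell. The bound receptor is cut by ADAM proteases and then by gamma-secretase, and its freed intracellular domain enters the nucleus, joins the DNA-binding protein RBPJ and Mastermind coactivators, and switches on genes of the HES and HEY families, which encode repressors. In the pancreas the pathway is known for holding progenitors undifferentiated and for its return when acinar cells take on a duct-like state.

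The reagent that separates the groups and the promoter stretches that bear on the pathway's readout are shown first. The guide is printed as the labels give it, and the promoter stretches cover the 130 bases before the RefSeq start of transcription of HES1, the classical target, and NRARP, a feedback inhibitor. Promoters come from RefSeq (GRCh38.p14), at chr3:194136018-194136147 on the plus strand for HES1 and chr9:137302272-137302401 on the minus strand for NRARP, each 5′ to 3′. Capitals mark TGGGAA, the core of the RBPJ binding motif.
KDM6A guide: attcgtgctgcaagtgcag
HES1 promoter: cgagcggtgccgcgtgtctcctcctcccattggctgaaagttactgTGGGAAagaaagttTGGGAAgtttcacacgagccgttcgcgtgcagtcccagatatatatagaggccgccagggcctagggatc
NRARP promoter: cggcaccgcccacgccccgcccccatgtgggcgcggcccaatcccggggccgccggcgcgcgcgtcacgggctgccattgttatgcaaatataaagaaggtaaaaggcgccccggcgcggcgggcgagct

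The RefSeq table held a promoter window, 250 bases before to 50 after the start, for 7 of the 10 genes (NOTCH1, NOTCH2, NOTCH3, JAG1, JAG2, HES1 and NRARP). TGGGAA was searched on both strands, and HES1 was the 1 gene of these with a match. It had 2, both on the plus strand, at bases -84 to -79 and -70 to -65 and 8 bases apart. Over all 35116 windows 24.0% held the motif and 3.80% held at least 2 matches. The search took this exact core alone, so sites that vary from it are not marked, and a marked stretch need not be a bound site. A match describes letters only and was not tied to any difference measured here.

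All values are deposited log2 levels made with RMA (robust multi-array average), which corrects background, equalises the arrays of a run and summarises the probes of a set. Array medians were between 4.75 and 5.06, and a probe set below the median of its array is called dim here. Levels were compared within a line only, since the values bear marks of separate RMA runs for the lines. KDM6A was lower in KO cells of each line. Its brightest probe set read 8.02 and 7.85 on BxPC3 control and 7.29 and 7.01 on KO arrays (-0.79 ± 0.12, SE, adjusted p = 0.0329), and 6.73 and 4.06 in Panc1. That BxPC3 call ended without control array 1 (adjusted p = 0.215), control array 2 (0.147) or KO array 2 (0.0843), or with no filter on low signal (0.0611). All 8 markers of pancreatic duct and epithelium were above the array median on every array. Their summed level was 79.5 on the Panc1 control, 76.1 on the Panc1 KO, 91.4 on both BxPC3 control and 88.9 to 89.4 on BxPC3 KO arrays. Of these 8, MUC1 (-1.26, adjusted p = 0.0119) and SOX9 fell in BxPC3, and CDH1 was 4.24-fold lower on the Panc1 KO array. Among markers of other cell types COL1A2, COL3A1, LUM, KDR and PTPRC were dim on all 6 arrays. The endothelial cadherin CDH5 was called in BxPC3 at -2.19 on the log2 scale (adjusted p = 0.00579). It was above the median on the BxPC3 control arrays alone and dim on the KO arrays. It thus passed the filter on low signal through the group in which it is high, so its call is no independent support for a difference. The summed level of the 5 endothelial markers went from 25.1 and 25.2 on control to 23.0 and 23.5 on KO arrays. PECAM1 differed by -0.02, VWF by 0.21 and TEK by 0.14, so that CDH5 carried the lower sum. Of 6 fibroblast markers 2 to 3 were above the median on an array. Their summed level was 26.9 and 28.7 in Panc1, 29.8 to 30.8 on BxPC3 control and 27.8 to 27.9 on BxPC3 KO arrays. LUM (-1.91) and COL3A1 (-0.62), dim on all 6 arrays and not tested, carried the lower BxPC3 sum. COL1A1 differed by -0.11, DCN by -0.06, PDGFRB by 0.16 and COL1A2 by 0.08. Of 3 immune markers 1 to 2 were above the median on an array, with sums of 12.3 and 11.5 in Panc1. The BxPC3 sums were 13.7 on both control and 13.2 to 13.5 on KO arrays. In BxPC3 CD14 fell by 0.43 on the log2 scale (adjusted p = 0.0422) while CD3E differed by 0.14. CD14 was above the median on control arrays alone, so its call is no independent support either. The part of these markers in the Notch results was not tested.

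In BxPC3, DLL1 rose 1.87-fold in KO cells. DNER also passed the test, with lower values in KO cells, but it was above the array median on 1 array only, so that its size is not given as a fold. The other 8 genes did not pass. Unadjusted limma p was under 0.05 for 2 members higher and 4 lower in KO cells, DLL1 and DNER among them. That held for 19.9% of all genes. Receptors, Jagged ligands and HES1 differed by at most 0.26 on the log2 scale by their brightest probe sets. In Panc1 HEY1 was 2.96-fold lower on the KO array by its brightest probe set and 1.51-fold lower by its other one. NRARP was 1.82-fold lower there. DNER was dim on both Panc1 arrays. All 10 genes passed the filter on dim probe sets, which asked that the gene's brightest probe set be above the median on at least 1 of 6 arrays, and DNER passed through BxPC3 control array 2 alone, a group in which it is high, so its call is no independent support for a difference. At an adjusted p under 0.05, 2 of 10 were called in BxPC3, DNER among them, against 4.72% of the 14387 genes tested (1.14% rose and 3.58% fell). In Panc1 2 of 10 were at least 2-fold different, HEY1 and, between dim values, DNER, against 3.86% of genes (0.577% higher and 3.28% lower).

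**Figure D1:**
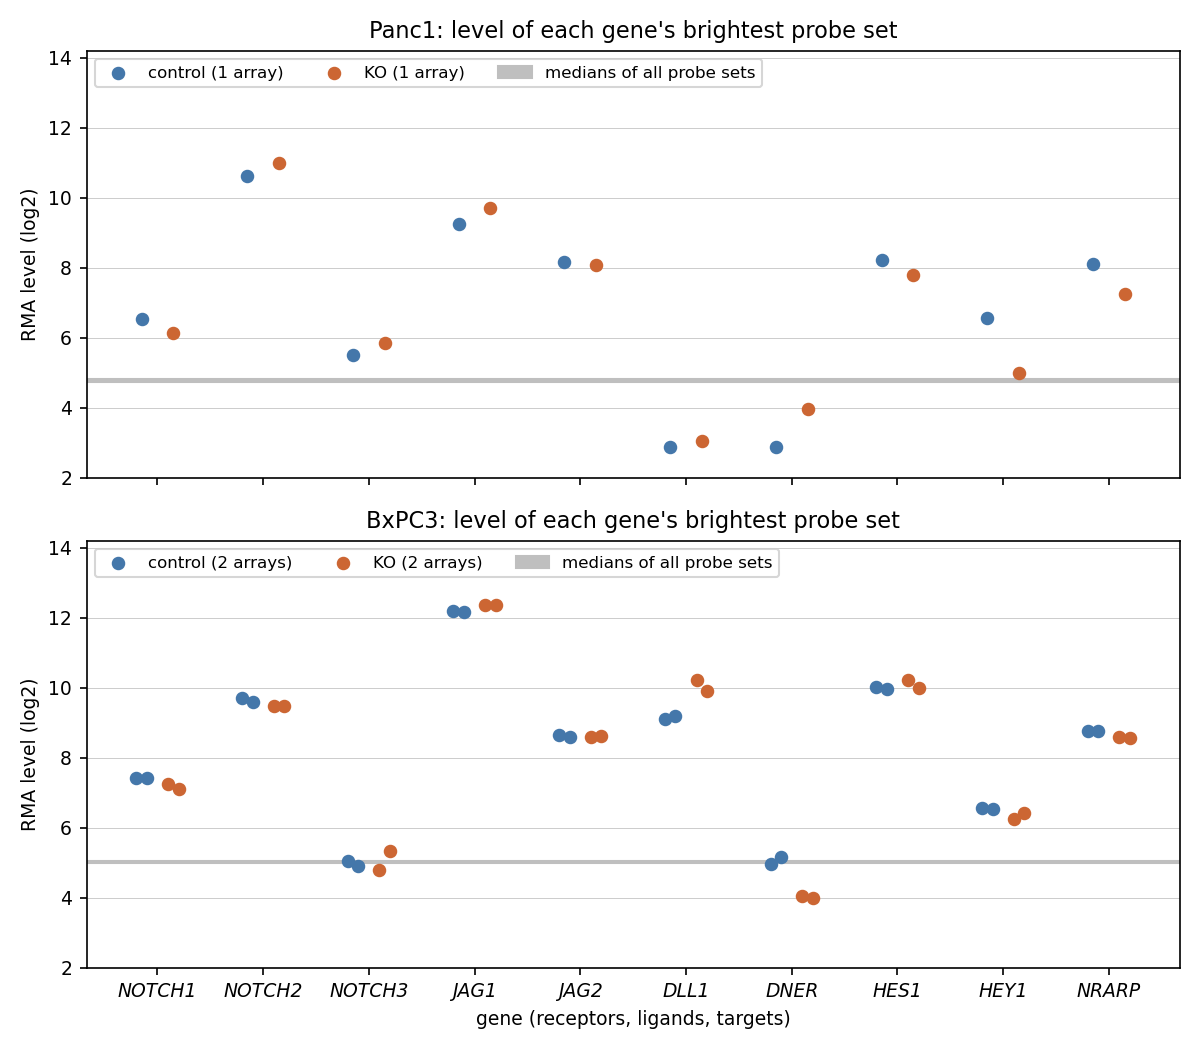
Level of the brightest probe set of each gene (log2 RMA) on every array, with control arrays in blue and KO arrays in orange, for Panc1 (top) and BxPC3 (bottom); the grey band spans the medians of all probe sets. DLL1 lies well below the band in Panc1 and far above it in BxPC3, where its KO arrays stand above its control arrays, and DNER lies near or below the band throughout.

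Among the receptors, NOTCH1 read 7.43 and 7.43 on BxPC3 control and 7.25 and 7.10 on KO arrays. Both KO arrays were below both controls, but the difference of -0.26 ± 0.08 did not pass the test (adjusted p = 0.169, 95% interval -0.46 to -0.05 for this gene alone). The Panc1 control gave 6.54 and the KO array 6.14. A dimmer probe set of NOTCH1 went the other way, by 0.20 in BxPC3 and 0.47 in Panc1.

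NOTCH2 read 9.69 and 9.60 on BxPC3 control and 9.49 and 9.48 on KO arrays. The KO arrays were again the lower ones, by -0.16 ± 0.07 (adjusted p = 0.286). In Panc1 it was higher on the KO array, at 10.98 against 10.62. Its other probe sets ranged from -0.22 to -0.01 in BxPC3 and from -0.16 to 0.53 in Panc1. NOTCH2 has near-identical NOTCH2NL copies, so these values may hold signal of both; a further probe set that lists NOTCH2 beside those copies was left out.

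NOTCH3 lay near the median, at 5.04 and 4.90 on BxPC3 control and 4.78 and 5.34 on KO arrays. The KO arrays lay on either side of the controls and were 0.56 apart, so that a difference of 0.09 ± 0.19 (95% interval -0.40 to 0.58) was within the replicate spread. In Panc1 it read 5.51 and 5.84, and its other probe set was dim on all 6 arrays.

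JAG1, a Jagged ligand, read 12.20 and 12.18 on control and 12.35 and 12.37 on KO arrays. Both KO arrays were higher, by 0.17 ± 0.06, which did not pass the test (adjusted p = 0.241, 95% interval 0.00 to 0.34). With a variance prior that follows expression the same difference passed (adjusted p = 0.0338). On the Panc1 arrays JAG1 was 9.25 in control and 9.71 in KO cells. Its 6 probe sets did not all point one way, with differences from -0.13 to 0.28 in BxPC3 and from -0.25 to 0.48 in Panc1.

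JAG2, the other Jagged ligand, read 8.64 and 8.59 on BxPC3 control, 8.59 and 8.62 on BxPC3 KO, and 8.16 and 8.08 on Panc1 arrays. The BxPC3 difference of -0.01 ± 0.07 had a 95% interval from -0.18 to 0.16, and its sign turned under every scaling tried (0.01 to 0.02).

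DLL1, a Delta-like ligand, was the member that rose. It read 9.12 and 9.20 on BxPC3 control and 10.22 and 9.91 on KO arrays, with no overlap and a gap between the groups larger than the spread within either. The difference was 0.90 ± 0.12 (adjusted p = 0.0231, 95% interval 0.59 to 1.21). Its less bright probe set went from 5.54 and 5.57 to 5.93 and 5.90, a difference of 0.36 ± 0.07 that did not pass the fit over probe sets (adjusted p = 0.0748). Panc1 gave dim values of 2.88 and 3.06, above 15.8% and 17.9% of the probe sets of those arrays, where BxPC3 arrays placed DLL1 above 91.2% to 96.0%. The BxPC3 call ended without control array 1 (adjusted p = 0.156) or control array 2 (0.138), with differences of 0.86 and 0.94, and held without either KO array (0.0443 and 0.0365).

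DNER encodes a Delta and Notch-like EGF repeat protein, best known in neurons, that lacks the domain by which classical ligands bind. Its 1 probe set read 4.96 and 5.17 on BxPC3 control and 4.04 and 4.002 on KO arrays, and the groups did not overlap. The measured difference was -1.04 ± 0.09 on the log2 scale (adjusted p = 0.00831), from values near the median to dim ones. The Panc1 control gave 2.89 and the KO array 3.96, a difference of 1.07 in the other direction between dim values. The BxPC3 call ended without control array 2 (adjusted p = 0.0683) or KO array 2 (0.0615). DNER was not tested when every array of a group had to be above the median, and in Panc1 its difference was 0.94 after quantile normalization or cyclic loess, under 2-fold.

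**Figure D2:**
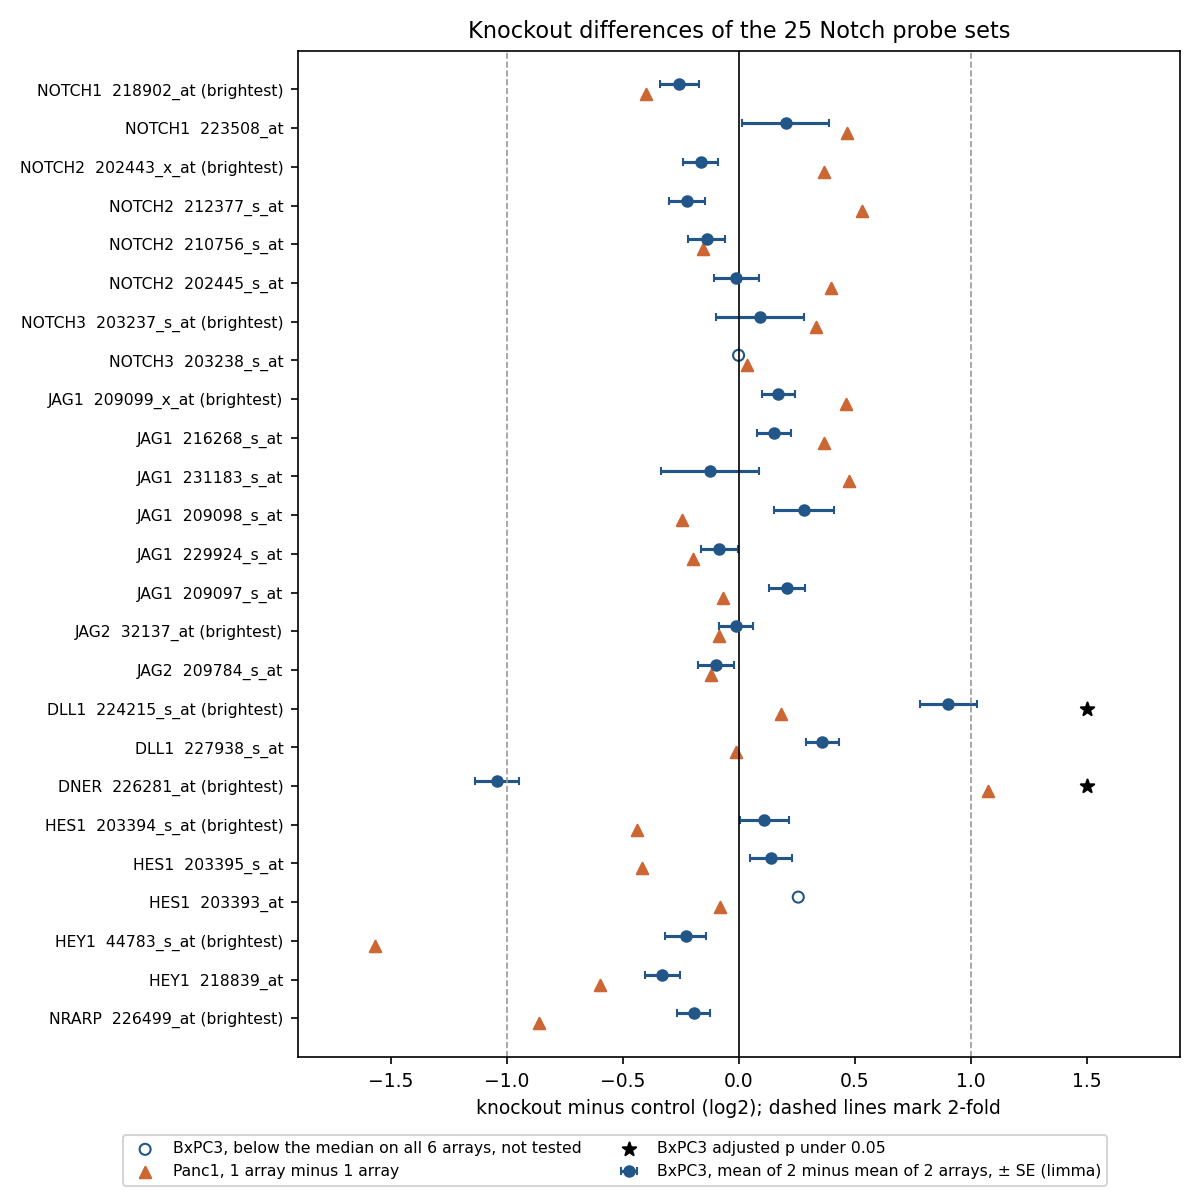
KO minus control (log2) for the 25 probe sets, with BxPC3 as blue circles (± SE from limma, open where dim on all 6 arrays and not tested), Panc1 as orange triangles and stars for the BxPC3 calls. Of the 23 probe sets tested, 2 were called, those of DLL1 and DNER, against 3.33% of the 27088 probe sets in that fit, and both HEY1 probe sets lie left of 0 in both lines.

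Of the targets, HES1 encodes the repressor most used as a readout of receptor activity. It read 10.02 and 9.97 on BxPC3 control and 10.23 and 9.98 on KO arrays, and KO array 2 lay between the controls. The difference of 0.11 ± 0.10 (adjusted p = 0.630) had a 95% interval from -0.16 to 0.37. Panc1 control cells gave 8.23 and KO cells 7.80, and the next probe set gave -0.42 beside the -0.44 of the brightest. In BxPC3 that next probe set differed by 0.14 (limma adjusted p = 0.501 over probe sets), with both KO arrays above both controls.

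HEY1, a related repressor, read 6.57 and 6.54 on BxPC3 control and 6.24 and 6.42 on KO arrays. Both KO arrays were lower, by -0.23 ± 0.09, which did not pass the test (adjusted p = 0.231). Panc1 levels were 6.55 in control and 4.99 in KO cells, the latter close to the median there, a difference of -1.57. Its other probe set had the same sign and a smaller size in Panc1, 5.91 against 5.31 (-0.60), and gave -0.33 ± 0.08 in BxPC3 (adjusted p = 0.106 over probe sets). The mean of the HEY1 probe sets was -1.08 in Panc1.

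NRARP encodes a small ankyrin-repeat protein that is induced by Notch and damps the receptor complex. It read 8.76 and 8.77 on BxPC3 control and 8.59 and 8.56 on KO arrays, and the KO arrays were lower by -0.19 ± 0.06 (adjusted p = 0.191). Panc1 levels were 8.10 in control and 7.24 in KO cells, a difference of -0.86 that centring each array on its median brought to -0.66. All 3 targets were thus lower on the Panc1 KO array, as 49.9% of genes were, with no replicate check; the sign held for these 3 under each scaling, filter and probe-set rule tried. Of 8 other HES, HEY and related genes 4 were higher there and 4 lower.

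As a group in BxPC3, 2 members had both KO arrays above both controls (23.9% of genes did) and 5 had them below (26.8%). The median difference was -0.09 over the 10 members and 0.00 over all genes. In Panc1 the members' median was 0.05 and that of all genes 0.

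Asked over both lines with cell line as a term, 0 of 10 members passed (0.0834% of genes did), with limma adjusted p from 0.270 to 0.972, while 5 had an unadjusted p under 0.05, as 11.8% of genes did. The knockout effects of the lines differed for 3 of 10 members by the interaction contrast, against 14.0% of genes. The contrast takes the spread of BxPC3 arrays for Panc1 too. The Panc1 difference minus the BxPC3 difference was -1.34 ± 0.15 for HEY1 (adjusted p = 0.0108) and -0.67 ± 0.11 for NRARP (0.0256). The mean of the HEY1 probe sets gave -0.80 (0.0156), and its other probe set gave -0.27, which did not pass over probe sets (0.227). DNER gave 2.12 ± 0.16 (0.00526) from values that were dim on 5 of 6 arrays. HEY1 and NRARP missed the threshold without BxPC3 control array 1 (adjusted p = 0.0609 and 0.160) or control array 2 (0.0639 and 0.154). For NOTCH2 the contrast of 0.53 ± 0.12 narrowly missed the threshold (limma adjusted p = 0.05001). It passed with centred arrays, after quantile normalization, with the variance prior that follows expression or with stricter filters on low signal. The other NOTCH2 probe sets gave 0.75, which passed over probe sets (0.0315), and 0.41 and -0.02, which did not. For HES1, at -0.55, and DLL1, at -0.72, the contrast did not pass (adjusted p = 0.104 and 0.0814). It passed for both without BxPC3 KO array 2 (0.0321 and 0.0284), and for DLL1 without KO array 1 (0.0487).

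Around the members, 84 other genes of the pathway were listed by role, also with earlier results known, and 75 of them were tested. Their counts are likewise no test against the shares of all genes. In BxPC3 3 of these 75 rose and 6 fell, where 1.14% and 3.58% of all genes did. These shares also stand beside the lists below. The median difference was 0.00 over the 75 and over all genes. CDKN1A, which the series title names, is among those that fell, and it was the 1 gene of the 75 to pass over both lines (adjusted p = 0.0227). Without control array 1, and likewise without control array 2, 1 of the 9 calls was left, and 5 were left without KO array 2, with no filter on low signal or with the replicate number as a block. In Panc1 2 were at least 2-fold higher and 2 lower, where 0.577% and 3.28% of all genes were.

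Of 10 tested genes for other ligands, receptors and ligand-like modulators, 2 rose in BxPC3 and 0 fell, counted by the brightest probe set. Of all genes 1.14% rose and 3.58% fell. CCN3 differed by -0.33 on its brightest probe set (limma adjusted p = 0.134) and by -0.53 on its other one (0.0290 over probe sets). CNTN1, a contactin adhesion molecule also described as a Notch ligand, read 7.98 and 7.84 on control and 9.01 and 8.80 on KO arrays (1.00 ± 0.10, adjusted p = 0.0119), and its further probe sets above the median gave 0.83 and 1.29. Like DLL1 it was dim in Panc1, at 2.18 and 2.41. DLK2, a Delta-like protein regarded as a Notch inhibitor, rose by 0.49 ± 0.08 (adjusted p = 0.0345). Without control array 1 or 2 both calls ended, with adjusted p of 0.0669 and 0.0986 for CNTN1 and 0.254 and 0.344 for DLK2, and DLK2 also missed the threshold without KO array 2 (0.0798), with each array centred on its median (0.0518), with the replicate block (0.0959) or with no filter on low signal (0.0679).

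For the machinery of receptor processing and transcription in BxPC3, none of 5 receptor glycosylation, 8 receptor cleavage, 12 RBPJ complex or 5 TLE corepressor genes passed, where 1, 1, 2 and 0 had an unadjusted p under 0.05, as 19.9% of all genes did. Those with the smallest p were the fringe glycosyltransferase RFNG (0.29 ± 0.07, adjusted p = 0.117), the convertase FURIN (-0.20 ± 0.06, 0.176) and the acetyltransferase KAT2B (0.46 ± 0.11, 0.0940), which passed after quantile normalization (0.0358), after cyclic loess or with a variance prior that follows expression (0.0282). Among 12 tested ubiquitin ligase and trafficking genes 1 fell, DTX3L of the Deltex family (-0.50 ± 0.06, adjusted p = 0.0207); without control arrays 1 and 2 in turn its adjusted p was 0.245 and 0.267, without KO array 2 it was 0.0578 and with the replicate block 0.0748. In Panc1 the difference among these lists that reached 2-fold by brightest probe sets was that of TLE1. This gene encodes a Groucho-type corepressor used by HES proteins. It went from 8.46 to 6.66, 3.48-fold lower, with 2 further probe sets at -1.81 and -2.15 and 2 dimmer ones at 0.43 and 0.44. The mean over its probe sets was -0.98, under 2-fold. SPEN, of the RBPJ complex list, went from 6.54 to 7.81 in Panc1 on a less bright probe set, 2.42-fold higher. Its brightest probe set differed by 0.03 there, and its further ones by -0.32 and 0.19. The 5 TLE genes had a Panc1 median of -0.63, beside 0 for all genes.

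**Figure D3:**
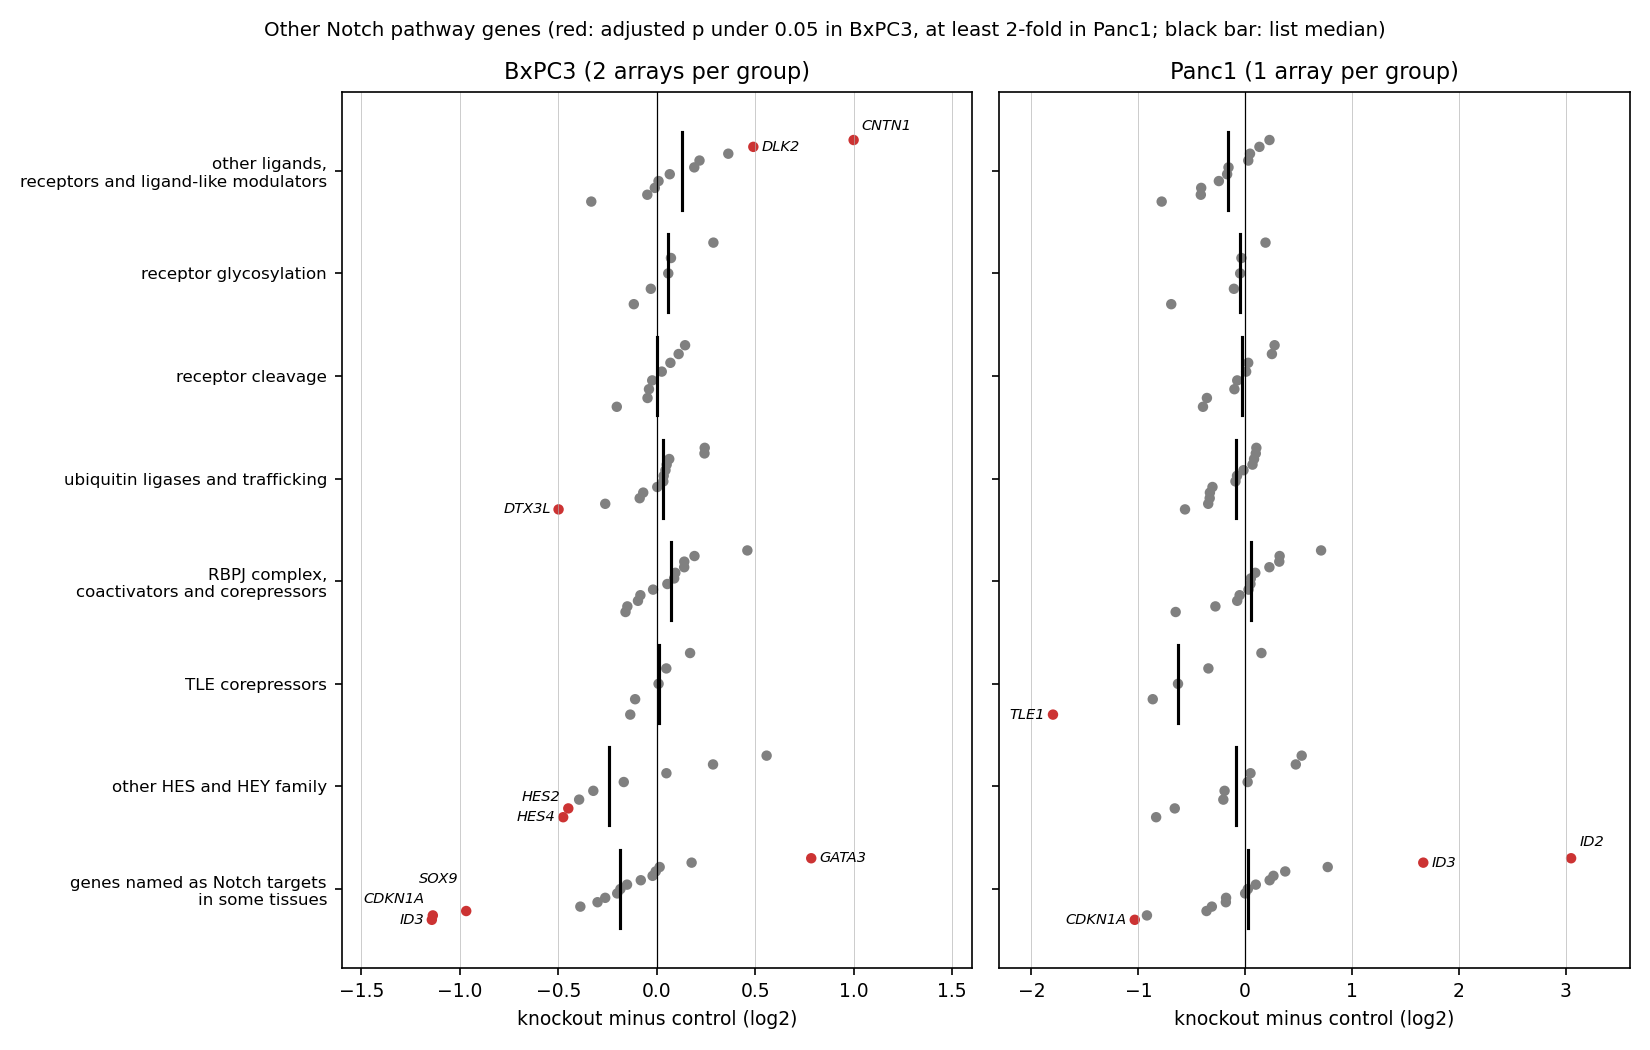
KO minus control (log2) of the tested pathway genes by role, BxPC3 on the left and Panc1 on the right; each point is a gene, black bars are list medians, and red marks adjusted p under 0.05 in BxPC3 or a difference of at least 2-fold in Panc1. CNTN1 and GATA3 lie farthest right in BxPC3 and CDKN1A and ID3 farthest left, and in Panc1 TLE1 lies apart from the other machinery.

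Other HES, HEY and related repressor genes had a BxPC3 median of -0.24 over 8 tested, 2 of which fell, where 3.58% of all genes did. HES4 read 9.32 and 9.39 on control and 8.90 and 8.86 on KO arrays (-0.48 ± 0.07, adjusted p = 0.0288), and HES2 differed by -0.45 ± 0.07 (0.0304). Each call ended whichever BxPC3 array was left out (adjusted p from 0.0553 to 0.334 for HES4 and at least 0.0583 for HES2), with the replicate block (0.0904 and 0.0932) and when dim genes were kept in the fit (0.0602 and 0.0638). In Panc1 HES4 differed by 0.02 and HES2 by -0.83.

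Genes named as Notch targets in some tissues had a BxPC3 median difference of -0.18, beside 0.00 for all genes. In this list 12 genes were below 0 and 3 above, where 7093 and 7284 of all genes were. Calls went in both directions. Of 15, 1 rose and 3 fell, where 1.14% and 3.58% of all genes did. SOX9, a duct and progenitor transcription factor, fell from 7.91 and 7.97 to 7.00 and 6.95 (-0.97 ± 0.07, adjusted p = 0.00487), CDKN1A, a cyclin-dependent kinase inhibitor gene, fell by 1.14 ± 0.07 (0.00360), and ID3, an inhibitor of helix-loop-helix factors, fell by 1.14 ± 0.14 (0.0192). GATA3, a transcription factor, rose by 0.78 ± 0.13 (adjusted p = 0.0372). Without control arrays 1 and 2 in turn the adjusted p was 0.0570 and 0.0691 for SOX9, 0.118 and 0.111 for ID3 and 0.193 and 0.252 for GATA3, while CDKN1A kept its call. GATA3 also missed it with the mean of its probe sets (0.0636) or with no filter on low signal (0.0675). ID3 and GATA3 had the other sign in Panc1, where ID3 read 7.46 and 9.12 and GATA3 differed by -0.92; the contrast between lines passed for both (2.81, adjusted p = 0.00690, and -1.70, 0.0147). ID2 read 5.21 on the Panc1 control and 8.26 on the KO array. CDKN1A differed by -1.03 there, and by -0.84 to -0.93, under 2-fold, with centred arrays, quantile normalization or cyclic loess.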

How the data were processed

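Per the submitters' processing notes, the authors made the deposited log2 values with RMA in the affy package; the version is not given in the sources used here. Per the labels' protocols, RNA with an integrity number above 7.0 was amplified with a 3' IVT kit. The Panc1 arrays shared 2895 identical values and arrays of different lines 0, as separate RMA runs would leave. RMA takes out any shift common to most genes, and dim probe sets have compressed differences. The number of arrays limits the precision.

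Of 54613 probe sets, 41091 had 1 symbol in the platform annotation, 1801 several and 11721 none; 41037 matched RefSeq by gene identifier. A gene was represented by its brightest probe set, and tested where that exceeded the array median on at least 1 array. limma 3.58.1 in R 4.3.3 fitted 1 mean for each of 4 groups to 14387 genes, and separately to 27088 probe sets, with 2 residual degrees of freedom and 3.08 prior ones in the gene fit. The fit over both lines had 3 residual degrees of freedom. Benjamini-Hochberg adjustment ran over all genes or probe sets. Panc1 differences have no test. The fit was tested on simulated data. Members and lists were chosen with earlier results of these data known. Pathway genes were named where called in BxPC3 or 2-fold different in Panc1, or else by the smallest p of their list.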

Additional observations from a re-analysis of the deposited data

Results flagged for a closer look

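The knockout differences of 3 genes were not alike in the lines by the interaction contrast. DNER gave 2.12 for Panc1 minus BxPC3 (limma adjusted p = 0.00526), but its values were dim on 5 of 6 arrays and it was tested through BxPC3 control array 2 alone. HEY1 differed by -1.34 (0.0108) and NRARP by -0.67 (0.0256), both lower on all 3 KO arrays than on the controls of their line, and by more in Panc1. The HEY1 contrast was -0.80 with the mean of its probe sets and -0.27 on its other probe set, which did not pass (adjusted p = 0.227). In Panc1 each of these rests on 1 array per group.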

How the results depend on the processing

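The members called in BxPC3 numbered 2. The count was 0 when only genes above the median on all 6 arrays were tested, which left DLL1, DNER and NOTCH3 untested, and 1 when every array of a group had to be above it, which left DNER untested; that filter was chosen after seeing the data. It ran from 0 to 2 when 1 BxPC3 array was left out, 0 without control array 2. In the fit over probe sets 2 were called, 1 with no filter, 0 above the median on all 6 arrays and 0 without any one array. In Panc1 2 members were at least 2-fold different, but 1 under those stricter filters, after quantile normalization or after cyclic loess. The interaction contrast passed for 3, for 5 after quantile normalization, for 7 with a variance prior that follows expression, and for 1 to 5 without 1 array (1 without control array 1, 5 without KO array 2); NRARP missed it with no filter (adjusted p = 0.0536). Of other pathway genes 9 were called, 5 with no filter, 14 with that variance prior, 5 with the replicate block and from 1 to 8 without 1 array. With the replicate block both members kept their calls (adjusted p = 0.0478 for DLL1 and 0.0221 for DNER), and 384 genes were called in place of 679. Same-numbered BxPC3 arrays deviated with a correlation of -0.17, and a crossed block, chosen after seeing the data, called 2 members and 455 genes. Over all genes the count was 94 without control array 1, 89 without control array 2, 610 without KO array 1, 318 without KO array 2, 445 with no filter and 1317 with the variance prior. Centring each array moved the Panc1 median by 0.20 and gave 152 genes higher and 301 lower at 2-fold, in place of 83 and 472.

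Signs turned among BxPC3, both-line and contrast differences that did not pass, and among Panc1 differences, which have no test. Among the members in Panc1 NOTCH1 was 0.034 with the mean of its probe sets, and JAG2 was 0.11 with centred arrays, 0.023 after quantile normalization and 0.012 after cyclic loess. With the mean of a gene's probe sets ID2 in BxPC3 was 0.056, HES1 over both lines 0.0077 and the NOTCH1 contrast between lines 0.061. With centred arrays JAG2 was 0.0087 in BxPC3, 0.044 over both lines and 0.10 in the contrast, HES1 over both lines 0.0069 and the NOTCH1 contrast 0.032. After quantile normalization JAG2 was 0.019 in BxPC3, 0.020 over both lines and 0.0041 in the contrast, and the NOTCH1 contrast was 0.0060. After cyclic loess JAG2 was 0.0065, 0.0084 and 0.0055. Without 1 array the BxPC3 difference ran from -0.19 to 0.37 for NOTCH3, from -0.034 to 0.0081 for JAG2, from -0.017 to 0.24 for HES1 and from -0.18 to 0.015 for ID2, and the NOTCH3 contrast from -0.037 to 0.52. The cause was not tested. Signal near background limits DNER in both lines and DLL1 in Panc1.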
